A study of Mus musculus with 20 samples.

Results

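The simple epithelial keratins Krt7, Krt8, Krt18 and Krt19 were followed by name through a table of RNA counts for mouse skin cells, where they make up 4 of 51123 gene identifiers. Cells carrying the tdTomato reporter had been sorted from dissociated epidermis or from spontaneous cutaneous squamous cell carcinoma (cSCC), and 20 libraries in 7 groups were made from 5 ng of RNA each. The carcinomas came from K14cre;Wwoxfl/fl;p53fl/fl mice (DKO cSCC, n = 3) and K14cre;p53fl/fl mice (PKO cSCC, n = 3), for which the labels give no age. Young epidermis, from mice of 100 to 120 days, was K14cre;Wwoxfl/fl;p53fl/fl (DKO young, n = 3), K14cre;p53fl/fl (PKO young, n = 3), K14cre;Wwoxfl/fl (WKO young, n = 3) or wild type (WT young, n = 3). Wild-type epidermis also came from mice of at least 400 days (WT old, n = 2). Apart from the tdTomato reporter, the titles of the wild-type samples name no allele or transgene, so the control mice cannot be described further. K14cre expresses Cre recombinase in cells that use the Krt14 promoter, which are basal keratinocytes and epithelia of similar origin such as glands and follicles. The labels call the libraries of a group biological replicates.

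Keratins are intermediate filament proteins that assemble only as pairs of a type I and a type II chain. Krt7 and Krt8 are type II chains, and Krt18 and Krt19 are type I chains. In the 1-layered epithelia of glands, gut and ducts the usual pair is Krt8 with Krt18, joined by Krt7 and Krt19, whereas stratified epidermis is built from Krt5 with Krt14 in its basal layer and Krt1 with Krt10 above it. In normal skin the simple keratins mark Merkel cells, sweat and mammary gland cells and, for Krt19, follicle stem cells, and their appearance in squamous carcinoma is a known feature of poorly differentiated tumours.

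The Krt8 and Krt18 genes lie side by side on mouse chromosome 15 and carry the partner chains of 1 filament, so their start regions are shown with that of Krt7, the other member on this chromosome. Each sequence holds 300 bases, 250 before and 50 after the annotated start, from RefSeq on build GRCm38.p6, written 5′ to 3′ on the strand of the gene. Capitals mark matches on either strand to 3 motifs. The E-box was searched with the letters CAGGTG. The GC box, a site of Sp and Klf factors, was searched with GGGCGG. The box that places the start in many promoters was searched with TATAAA.

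Krt7, chr15:101412153-101412452, plus strand: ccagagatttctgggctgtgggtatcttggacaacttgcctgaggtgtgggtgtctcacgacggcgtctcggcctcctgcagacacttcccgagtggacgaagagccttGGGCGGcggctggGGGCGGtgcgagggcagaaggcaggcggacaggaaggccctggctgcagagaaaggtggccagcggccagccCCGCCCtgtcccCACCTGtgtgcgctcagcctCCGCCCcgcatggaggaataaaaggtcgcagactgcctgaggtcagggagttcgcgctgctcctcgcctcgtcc

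Krt8, chr15:102004293-102004592, minus strand: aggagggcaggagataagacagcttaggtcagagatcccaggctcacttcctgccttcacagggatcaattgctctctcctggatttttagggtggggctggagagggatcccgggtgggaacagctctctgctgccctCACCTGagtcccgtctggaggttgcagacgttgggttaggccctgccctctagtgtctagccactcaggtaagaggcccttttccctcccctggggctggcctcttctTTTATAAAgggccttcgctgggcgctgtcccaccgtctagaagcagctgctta

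Krt18, chr15:102027966-102028265, plus strand: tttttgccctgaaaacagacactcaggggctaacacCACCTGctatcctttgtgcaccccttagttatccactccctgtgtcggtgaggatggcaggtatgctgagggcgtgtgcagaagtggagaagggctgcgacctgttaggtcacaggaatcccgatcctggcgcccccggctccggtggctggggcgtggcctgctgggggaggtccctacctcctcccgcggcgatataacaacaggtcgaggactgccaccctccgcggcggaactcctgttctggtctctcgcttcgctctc

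All 3 windows held the E-box letters, read as CACCTG on the printed strand, against 20.2% of 32851 mouse promoter windows of the same length. The GC box occurred 4 times in the Krt7 window and not in the other 2, and 35.7% of all windows held it. The letters TATAAA occurred in the Krt8 window alone among the 3, and in 13.6% of all windows. The 2 overlapping matches, on opposite strands, begin 3 and 1 bases before the annotated start and run across it. The AP-1 letters TGANTCA were in none of the 3 windows and in 7.81% of all windows. Bases G and C made up 66.33% of the Krt7 window, 58% of the Krt8 window and 61.33% of the Krt18 window, against a median of 52.67%. These matches describe letters in a window and carry no evidence of binding. Krt19, on chromosome 11, had no entry in the promoter table.

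Total counts ran from 11930153 to 17199262 per library, and no 2 libraries of a group were near copies of each other. The deleted genes were checked against the labels. Wwox stood at 7.11 CPM (counts scaled to the library total) in the library labelled DKO young 3, against 0.918 and 0.928 CPM in DKO young 1 and 2. Trp53 stood at 20.5 CPM in that library and at 45.9 CPM in the library labelled DKO cSCC 3. The other 4 DKO libraries held 2.68 to 3.28 CPM of Trp53. In DKO cSCC 3 Wwox stood at 1.888 CPM, against 7.495 to 12.58 CPM in PKO cSCC. So DKO young 3 goes against its label in both genes, and DKO cSCC 3 in Trp53 alone. The libraries labelled PKO young 2 and 3 held Trp53 at 21.4 and 20.4 CPM, against 6.03 CPM in PKO young 1, and go against their labels as well. The 4 libraries keep the names of their labels below. Fibroblast markers, 10 genes, summed to 2984 CPM in DKO young 3, against 36.9 and 18.4 CPM in DKO young 1 and 2. They summed to 2658 and 2221 CPM in PKO young 2 and 3, against 107 CPM in PKO young 1. In DKO cSCC 3 their sum, 537 CPM, was below the 797 and 932 CPM of DKO cSCC 1 and 2. T and NK cell markers summed to 3917 CPM in PKO young 3, against 804 CPM in PKO young 1 and 296 CPM in PKO young 2. The part of fibroblast or T and NK cell RNA in the Wwox and Trp53 values was not tested. The keratin values are given with all 4 libraries in. Without DKO young 3 and DKO cSCC 3 no keratin was called in any comparison, and the values without PKO young 2 and 3 stand beside the comparisons they enter. The labels give the cell type as keratinocyte, and Krt5 and Krt14 were detected in all 20 libraries. The 11 T and NK cell markers nevertheless summed to more than the 7 keratinocyte markers in PKO young 3, at 3917 against 3679 CPM, and in WT young 1, at 2737 against 1780 CPM. The keratinocyte sum spread widely. It was 3679 CPM in PKO young 3, 3703 CPM in WT old 2 and at most 3197 CPM in WT young, and 9686 to 30219 CPM in the other 15.

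The levels of Krt8, Krt18 and Krt19 moved together over the libraries and spread widely inside every group. All levels, above and below, are CPM scaled by the trimmed mean of M-values over the 20 libraries. In a bulk sample, fewer cells that carry a keratin and less of its RNA per cell cannot be told apart.

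Krt8, the type II chain that is central to simple epithelia, stood at 2.32, 0.375 and 0.540 CPM in DKO cSCC and at 0, 90.2 and 0.698 CPM in PKO cSCC. Young epidermis held 62.6, 12.1 and 26.8 CPM in DKO, 119, 20.5 and 29.8 CPM in PKO and 17.5, 57.2 and 91.4 CPM in WKO. Wild-type epidermis held 52.0 and 255 CPM when old and 0.717, 7.13 and 11.1 CPM when young. So 5 of the 6 carcinoma libraries lay below 3 CPM, and PKO cSCC 2 lay among the epidermis libraries. All 9 libraries of young knockout epidermis were above the 3 of young WT, and WT old 2 was the highest of the 20. The 0 in PKO cSCC 1 is a count of 0, and 3 counts in that library would be 0.212 CPM. That library also held 3 counts of the pseudogene Krt8-ps, and reads from stretches that the gene and its pseudogene share cannot be told apart.

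Krt18, the type I partner of Krt8, stood at 13.8, 2.10 and 0.270 CPM in DKO cSCC and at 0.565, 33.3 and 0.698 CPM in PKO cSCC. In young epidermis it was 61.1, 12.6 and 19.4 CPM in DKO, 103, 19.8 and 32.9 CPM in PKO and 16.0, 43.4 and 81.0 CPM in WKO. In wild-type epidermis it was 49.9 and 353 CPM when old and 0.496, 7.06 and 18.2 CPM when young. PKO cSCC 2 again stood alone among the PKO carcinomas, and DKO cSCC 1 was the highest DKO carcinoma. The DKO and WKO young libraries overlapped those of WT young, because WT young 3 lay above the lowest library of each.

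Krt19, a type I chain that lacks most of the tail domain of other keratins, stood at 1.01, 0.450 and 0.0899 CPM in DKO cSCC and at 0.212, 8.91 and 0 CPM in PKO cSCC. In young epidermis it was 30.9, 3.14 and 11.4 CPM in DKO, 84.5, 13.3 and 17.5 CPM in PKO and 14.5, 27.7 and 73.9 CPM in WKO. In wild-type epidermis it was 41.1 and 170 CPM when old and 0.165, 6.86 and 8.30 CPM when young. Every carcinoma library lay below both old WT libraries, PKO cSCC 2 included. In PKO cSCC 3 the count was 0, where 3 counts would be 0.175 CPM.

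Krt7, a type II chain of glandular and ductal epithelia, had a narrower range. It stood at 1.38, 0.375 and 4.95 CPM in DKO cSCC and at 2.54, 18.8 and 1.34 CPM in PKO cSCC. In young epidermis it was 16.9, 6.14 and 5.09 CPM in DKO, 20.7, 8.82 and 2.33 CPM in PKO and 4.60, 10.7 and 18.4 CPM in WKO. In wild-type epidermis it was 10.3 and 37.3 CPM when old and 1.16, 2.78 and 2.43 CPM when young. The 2 highest libraries outside young knockout epidermis were the same as for Krt8, WT old 2 and PKO cSCC 2.

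**Figure D1:**
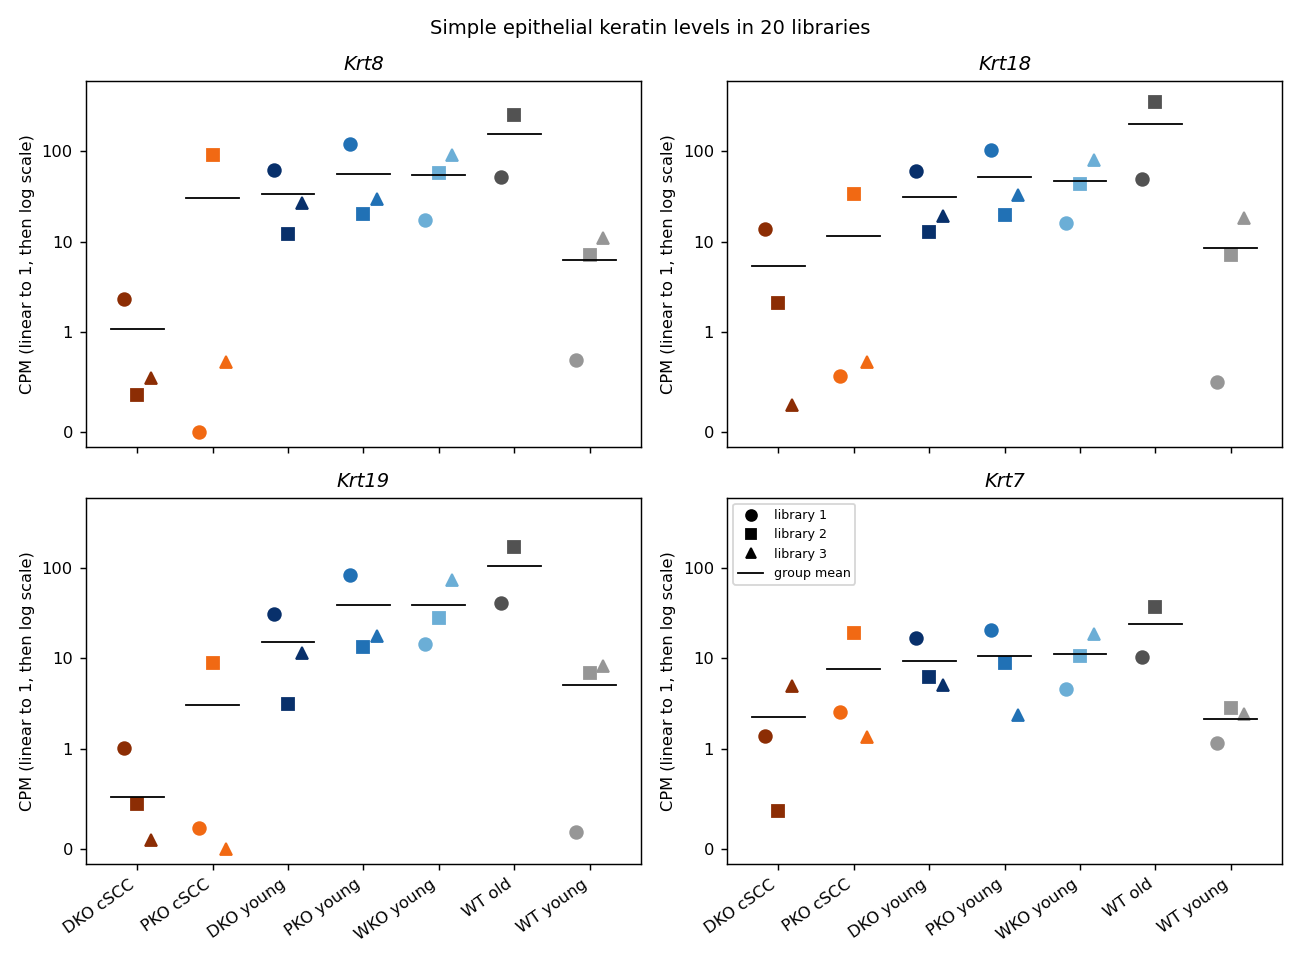
Levels of each simple keratin (CPM, linear up to 1 and logarithmic above) in the 20 libraries, with groups along the horizontal axis, a symbol for each library number and a line at the group mean. Krt8 lay below 3 CPM in 5 of 6 carcinoma libraries and at 90.2 CPM in PKO cSCC 2, and WT old 2 was the highest library for all 4 genes.

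Ordered by group mean, Krt8 was highest in WT old (153 ± 144 CPM, SD, n = 2), followed by PKO young (56.4 ± 54.4), WKO young (55.4 ± 37.0), DKO young (33.9 ± 26.0), PKO cSCC (30.3 ± 51.9), WT young (6.30 ± 5.22) and DKO cSCC (1.08 ± 1.08, n = 3 for each of these 6). Krt18 had the same order of groups, between 201 ± 214 CPM in WT old (n = 2) and 5.38 ± 7.32 CPM in DKO cSCC (n = 3). For Krt19 the mean in PKO cSCC, 3.04 ± 5.09 CPM, stood below that in WT young, 5.11 ± 4.34 CPM (SD, n = 3 each). Krt7 was lowest in WT young, at 2.12 ± 0.86 CPM, next to DKO cSCC at 2.23 ± 2.40 CPM (SD, n = 3 each). For every gene the libraries of neighbouring groups in the order overlapped, so no single step in it exceeds the spread between libraries. Per kilobase of its longest coding transcript, Krt18 was the most abundant of the 4 in WT old, at 140 ± 149 CPM per kilobase (SD, n = 2). It was followed by Krt8 at 78.4 ± 73.4, Krt19 at 67.0 ± 57.8 and Krt7 at 5.82 ± 4.67 (SD, n = 2). In DKO cSCC the same scale gave 3.74 ± 5.10 for Krt18, 0.551 ± 0.550 for Krt8, 0.545 ± 0.587 for Krt7 and 0.329 ± 0.296 for Krt19 (SD, n = 3).

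As a share of all keratin RNA, summed as CPM over 54 keratin genes, the 4 members took 0.0114% to 0.0956% in DKO cSCC. In PKO cSCC they took 1.71% in library 2 and 0.0174% and 0.00839% in libraries 1 and 3. Among epidermis libraries the share was 11.2% in WT old 2 and 0.112% to 1.78% in the others. The simple keratins were thus a minor part of the keratin RNA in all libraries, with the share in WT old 2 far above the rest.

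The partner chains were compared per kilobase. Over the 15 libraries with at least 100 counts of Krt8 and Krt18 together, the ratio of Krt8 to Krt18 ran from 0.124 to 1.99. It was 0.705 to 1.01 in DKO young, 0.665 to 0.848 in PKO young, 0.805 to 0.966 in WKO young, 0.531 and 0.764 in WT old, and 0.741 and 0.445 in WT young 2 and 3. The 2 extreme values were both from carcinoma, 0.124 in DKO cSCC 1, from 32 counts of Krt8 and 190 of Krt18, and 1.99 in PKO cSCC 2, from 1529 and 565 counts. DKO cSCC 2, with 5 counts of Krt8 and 28 of Krt18, fell below that floor. So did the other 3 carcinoma libraries, with at most 12 counts of either gene, and no ratio is read from any of these. Summed per kilobase, Krt7 and Krt8 together stood at 0.348 to 0.719 times Krt18 and Krt19 together in every epidermis library but WT young 1, where the value was 1.44 from few counts. The value was 0.149 in DKO cSCC 1 and 1.76 in PKO cSCC 2. The members share no sequence of 31 bases with each other in the annotated transcripts. Krt8 shares 32.2% of its 31-base words with the pseudogene Krt8-ps, which had 3 counts in PKO cSCC 1, 1 count in DKO cSCC 3 and 0 in the other 18 libraries.

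**Figure D2:**
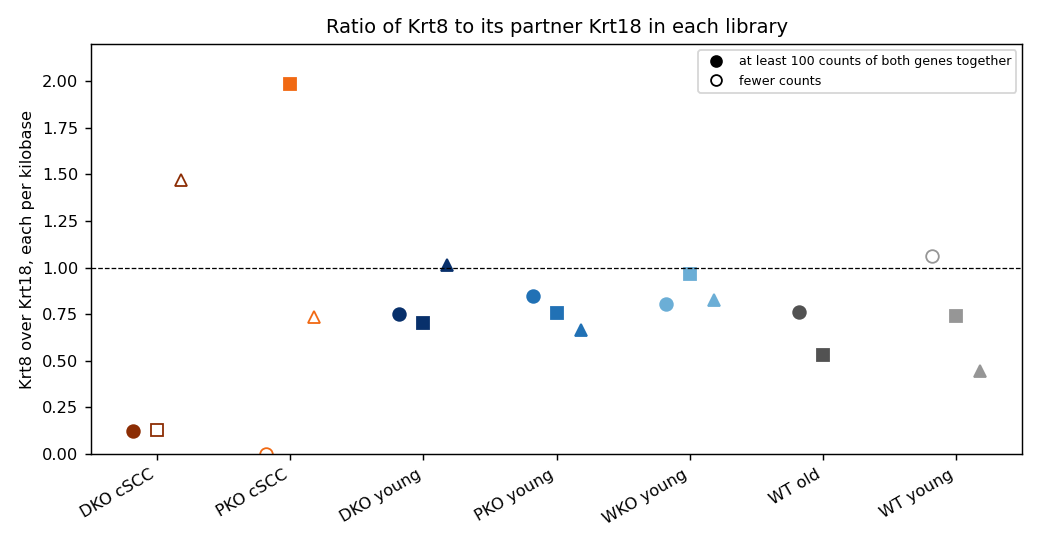
Ratio of Krt8 to Krt18, each per kilobase, in the 20 libraries (vertical axis, linear), with groups along the horizontal axis. Filled symbols have at least 100 counts of both genes together, and the filled carcinoma symbols, at 0.124 and 1.99, lie outside the range of the filled epidermis symbols, 0.445 to 1.01. WT young 1, with fewer counts, is an open symbol at 1.06.

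Differences between groups were read from edgeR's quasi-likelihood test on all genes, with Benjamini-Hochberg adjustment over all genes tested. Over 11 comparisons of 4 genes, 0 of 44 tests reached an adjusted p under 0.05, and 22 had an unadjusted p under 0.05. DESeq2 called 14 of the 35 tests for which it gave an adjusted p, and edgeR with no low-count filter called 16 of 44. Over all genes, the share with an unadjusted p under 0.05 ran from 8.1% to 41.2% by comparison. The share called ran from 0.514% to 16.4% by DESeq2 and from 0.0% to 11.4% with no filter. The log2 fold changes below are on the scale of the fit, with the standard error (SE).

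**Figure D3:**
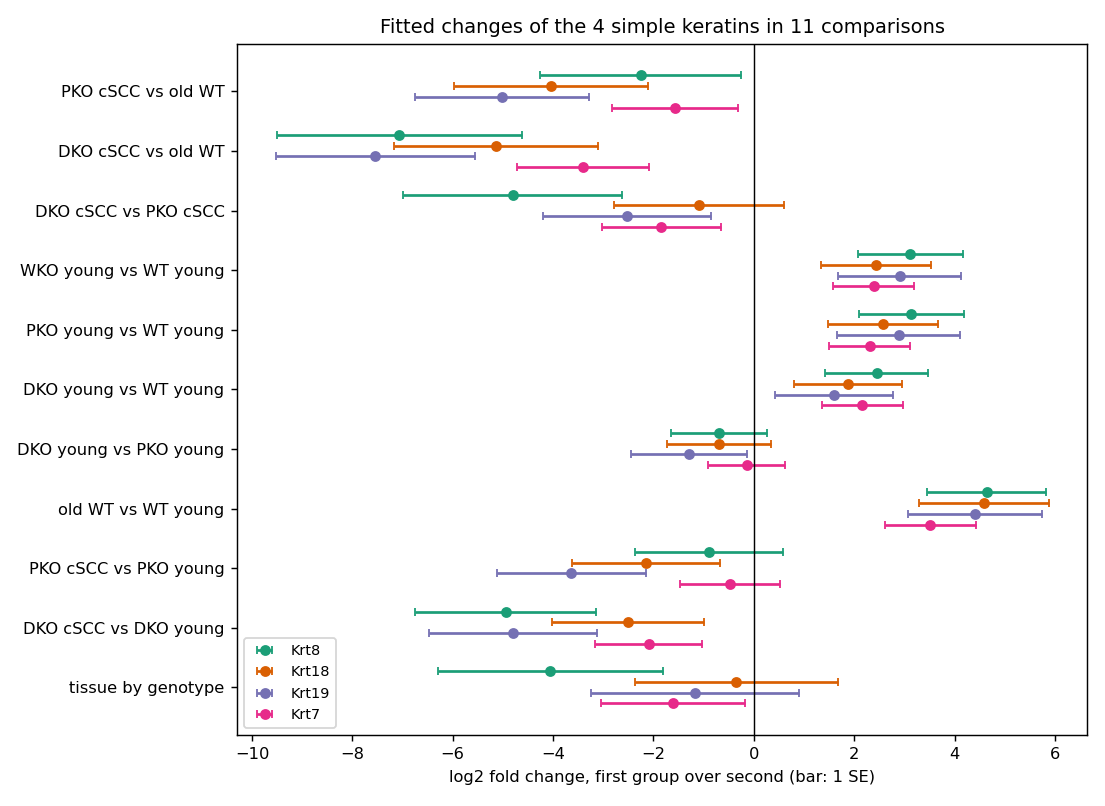
Fitted log2 fold change of each simple keratin (points, horizontal axis) with 1 SE (bars) in the 11 comparisons (rows), the first-named group over the second. The last row is the DKO over PKO change in carcinoma minus that in young epidermis. All 4 points are negative in the rows that set carcinoma against old WT and positive in the rows that set old WT or young knockout against WT young, and 0 of the 44 passed the adjusted threshold.

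Against old WT epidermis, the fitted values of all 4 genes were negative in both kinds of carcinoma. In DKO cSCC all 3 libraries lay below both old WT libraries for each of the 4 genes, a pattern seen in this direction for 17.0% of 16526 genes. The log2 fold changes were -7.06 ± 2.44 for Krt8, -5.13 ± 2.03 for Krt18, -7.55 ± 1.98 for Krt19 and -3.41 ± 1.31 for Krt7 (SE, 3 against 2 libraries), with a median of -6.10 beside 0.02 over all genes. All 4 had an unadjusted p under 0.05, as did 14.5% of all genes, and the smallest adjusted p of edgeR's quasi-likelihood test was 0.22, for Krt19. That test called 0.0% of the genes in this comparison. With no low-count filter it called 4 of 4, beside 2.58% of genes. With all 20 libraries in the fit it called Krt19 alone, beside 4.34% of genes.

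In PKO cSCC the log2 fold changes against old WT were -2.25 ± 2.0 for Krt8, -4.04 ± 1.94 for Krt18, -5.02 ± 1.73 for Krt19 and -1.57 ± 1.25 for Krt7 (SE, 3 against 2 libraries). Only Krt18 and Krt19 had no overlap of libraries, both on the low side, against 22.8% of all genes. Krt19 had an unadjusted p of 0.0202 and an adjusted p of 0.121 in edgeR's quasi-likelihood test, which called 0.0121% of genes. The median over the 4 was -3.14 beside 0.06 over all genes. Without PKO cSCC 2 the values were -8.60 for Krt8, -8.21 for Krt18, -9.87 for Krt19 and -3.54 for Krt7, with edgeR adjusted p-values of 0.0508 to 0.127. Without WT old 2 they were -0.67, -2.0, -3.64 and -0.34 in the same order of genes, so single libraries on either side set the size.

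The old WT group rests on 2 libraries that differ in gland markers. A list of 14 mammary and sweat gland genes summed to 302.7 CPM in WT old 1 and 20187 CPM in WT old 2, against 21.5 to 38.8 CPM in DKO cSCC and 7.70 to 345 CPM in PKO cSCC. In WT old 2 all 14 genes had counts, and the milk casein genes Csn2 and Csn1s1 reached 8373 and 7114 CPM, with the lactation genes Wap and Lalba at 146 and 165 CPM. In WT old 1 Csn2 and Csn1s1 stood at 43.8 and 106 CPM, Wap and Lalba at 0, and 3 of 14 genes at 0. Against WT old 1 as the only old WT library, all 4 fitted values remained negative in DKO cSCC, at -5.49 for Krt8, -3.11 for Krt18, -6.18 for Krt19 and -2.19 for Krt7. A fit with a single old WT library assumes that it varies like the libraries of the other groups. T and NK cell markers summed to 33.4 to 122 CPM in DKO cSCC and to 20.4 to 52.4 CPM in PKO cSCC, against 161 and 402 CPM in WT old, with no overlap. Keratinocyte markers summed to 19141 to 28053 CPM in DKO cSCC, against 3703 and 12058 CPM in WT old, and 7 of 7 had a positive fitted value. The part of gland, T cell or keratinocyte RNA in the size of these differences was not tested.

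Set against young epidermis of the same genotype, the carcinomas gave the same signs. All 20 libraries, WT old 2 included, were in this fit and shared its estimate of the spread. In DKO cSCC against DKO young the log2 fold changes were -4.94 ± 1.80 for Krt8, -2.51 ± 1.52 for Krt18, -4.80 ± 1.68 for Krt19 and -2.10 ± 1.06 for Krt7 (SE, 3 against 3 libraries). Krt7, Krt8 and Krt19 had no overlap of libraries on the low side, as had 15.5% of 18164 genes, while Krt18 overlapped. The smallest adjusted p in edgeR's quasi-likelihood test was 0.0897, for Krt19. It called 0 of 4 members and 7.3% of genes, 3.27% as higher and 4.03% as lower. DESeq2 called Krt8 and Krt19 (adjusted p = 0.0176 and 0.0171), beside 6.95% of genes. The 9 endothelial and mural markers summed to 50.8 to 548 CPM in DKO cSCC, against 17.3 to 50.7 CPM in DKO young, with 9 of 9 fitted values positive, a median of 4.60 and 1 gene called higher. The 14 gland markers summed to 21.5 to 38.8 CPM in DKO cSCC, against 45.1 to 120 CPM in DKO young. Of the 14, 1 had a positive fitted value, with a median of -2.75 and 0 called. The part of either marker list in the keratin values was not tested.

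In PKO cSCC against PKO young the values were -0.89 ± 1.47 for Krt8, -2.15 ± 1.48 for Krt18, -3.63 ± 1.48 for Krt19 and -0.48 ± 1.0 for Krt7 (SE, 3 against 3 libraries). Krt19 alone had no overlap, on the low side, as had 13.0% of genes, and edgeR's quasi-likelihood test called 0 of 4 beside 11.5% of genes, 5.33% as higher and 6.16% as lower. This comparison turned on PKO cSCC 2. Without it Krt8, Krt18 and Krt19 passed the edgeR threshold, with log2 fold changes of -7.19, -6.29 and -8.45 and adjusted p-values of 0.0163, 0.0402 and 0.0184, beside 11.3% of genes, and Krt7 stood at -2.41 (adjusted p = 0.155). That setting leaves 2 carcinomas, in which the counts of Krt8 were 0 and 12. Without PKO young 2 and 3 the log2 fold changes were -1.96 for Krt8, -3.14 for Krt18, -4.76 for Krt19 and -1.42 for Krt7, and edgeR called 0 of 4. The 14 gland markers summed to 7.70 to 345 CPM over PKO cSCC, against 52.2 to 283 CPM over PKO young. Of the 14, 3 were called lower, beside 6.16% of genes, and 3 had a positive fitted value, with a median of -2.37. T and NK cell markers summed to less in PKO carcinoma, at 20.4 to 52.4 CPM, against 296 to 3917 CPM over PKO young. They overlapped in DKO, at 33.4 to 122 CPM over DKO cSCC against 102 to 346 CPM over DKO young. The part of these lists in the keratin values was not tested.

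PKO cSCC 2 stood apart in other genes as well. Its gland marker sum, 345 CPM, was the highest of the 6 carcinomas and came mostly from Wfdc18 at 296 CPM, while Csn2 and Csn1s1 were at 6.26 and 7.20 CPM and Wap and Lalba at 0. The 10 fibroblast markers summed to 1222 CPM there, against 125 and 31.6 CPM in PKO cSCC 1 and 3 and 537 to 932 CPM in DKO cSCC. Among the 6 carcinomas, Dcn, Col1a2, Col6a1, Fbn1 and Pdgfra were highest there, while Col1a1, Col3a1, Lum, Pdgfrb and Dpt were not. The matrix gene Dcn was at 396 CPM, against 1.27 and 0.349 CPM in PKO cSCC 1 and 3. Col1a1 was at 146 CPM, against 154 to 362 CPM in DKO cSCC. The keratinocyte marker sum of PKO cSCC 2, 9686 CPM, was the lowest of the carcinomas. The wound keratin Krt6a was at 376 CPM there and at 1573 and 2824 CPM in PKO cSCC 1 and 3. Krt16, a keratin of the same kind, was at 54.0 CPM there and at 286 and 1148 CPM in the other PKO carcinomas. The part of these differences in its keratin values was not tested.

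**Figure D4:**
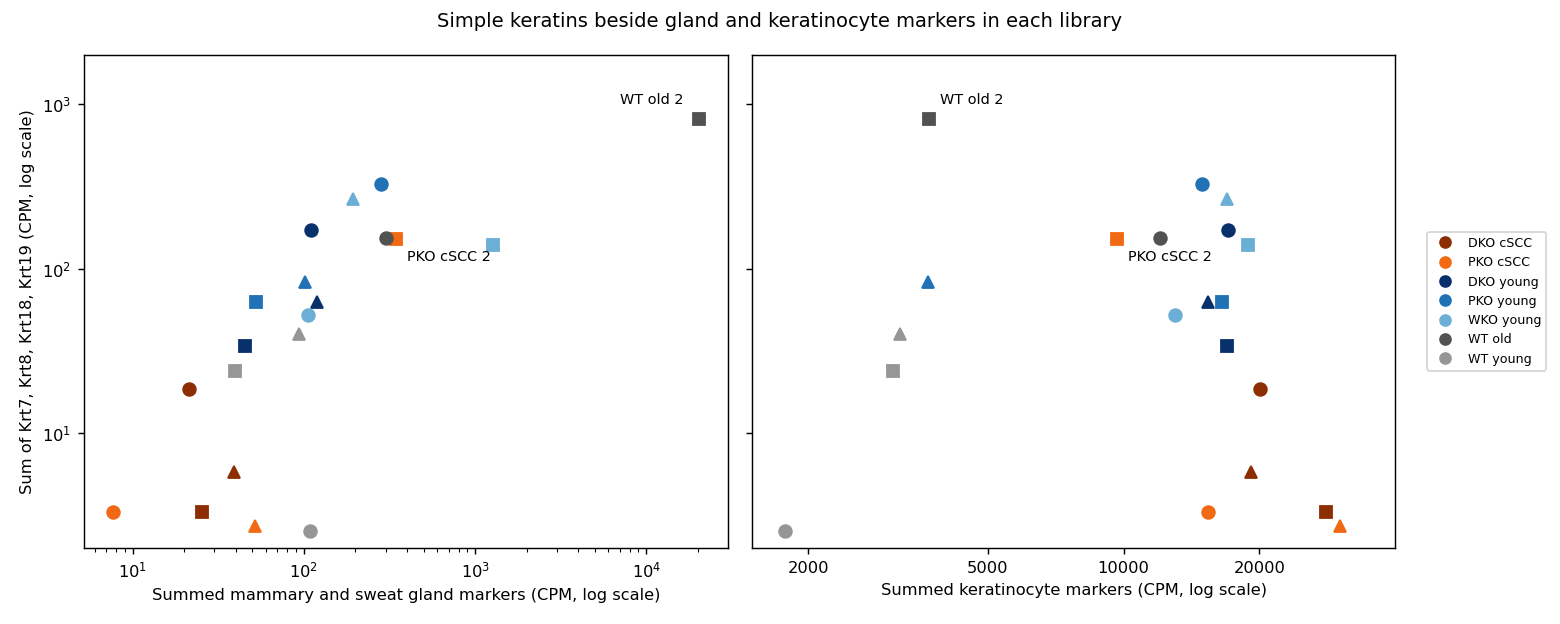
Sum of the 4 simple keratins (CPM, log scale, vertical axis) in each library beside the summed mammary and sweat gland markers (left panel) and the summed keratinocyte markers (right panel), both in CPM on log scales, with a colour for each group and circles, squares and triangles for libraries 1, 2 and 3. WT old 2, at 20187 CPM of gland markers, has the highest keratin sum, 815 CPM, and 5 carcinomas lie between 2.73 and 18.5 CPM.

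DKO and PKO carcinomas could not be separated by these keratins. The log2 fold changes of DKO over PKO cSCC were -4.81 ± 2.19 for Krt8, -1.10 ± 1.70 for Krt18, -2.53 ± 1.67 for Krt19 and -1.84 ± 1.19 for Krt7 (SE, 3 against 3 libraries), with edgeR adjusted p-values of 0.619 or more. The libraries overlapped for each gene, while 7.17% of all genes had no overlap on the high side and 6.81% on the low side. None of the 4 had an unadjusted p under 0.05, as 8.1% of genes did, and the test called 0.00605% of genes. Without PKO cSCC 2 all 4 signs turned, to 1.53, 3.08, 2.33 and 0.13 in the same order of genes. Endothelial and mural markers summed to 50.8 to 548 CPM in DKO cSCC, against at most 25.3 CPM in PKO cSCC, with 9 of 9 fitted values positive, a median of 4.17 and 0 called, and their part was not tested. In young epidermis DKO over PKO gave -0.69 ± 0.96, -0.69 ± 1.03, -1.30 ± 1.15 and -0.14 ± 0.76 (SE, 3 against 3 libraries), with edgeR adjusted p-values of 0.562 or more and with 0.0% of genes called. The libraries again overlapped for each gene, beside 6.99% of genes with no overlap on the high side and 8.44% on the low side. Without PKO young 1, the highest PKO library for all 4 genes, the values were 0.46, 0.26, 0.00 and 0.76. Without PKO young 2 and 3, a choice made after the data were seen, they were -1.78, -1.70, -2.45 and -1.11, and 0 of 4 were called. The difference between the 2 tissues in the DKO to PKO change had edgeR adjusted p-values of 0.479 or more, with 0.0% of genes called, and its sign also turned for each gene without PKO cSCC 2. Without PKO young 2 and 3 its sign turned for Krt18, to 0.63.

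In young epidermis the fitted values of all 4 keratins were positive in each knockout against WT. In WKO young against WT young the log2 fold changes were 3.12 ± 1.05 for Krt8, 2.43 ± 1.09 for Krt18, 2.91 ± 1.22 for Krt19 and 2.38 ± 0.81 for Krt7 (SE, 3 against 3 libraries). Krt7, Krt8 and Krt19 had no overlap on the high side, as had 26.4% of 16627 genes. All 4 had an unadjusted p under 0.05, as did 38.7% of all genes, and the adjusted p-values of edgeR's quasi-likelihood test were 0.0559 to 0.128, with 0 of 4 members and 21.4% of genes called. DESeq2 called all 4, beside 14.7% of genes. Without WKO young 1 edgeR called Krt7 and Krt8 (adjusted p = 0.0415 and 0.0418), beside 20.3% of genes.

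In PKO young against WT young the values were 3.14 ± 1.05 for Krt8, 2.57 ± 1.10 for Krt18, 2.89 ± 1.22 for Krt19 and 2.30 ± 0.81 for Krt7 (SE, 3 against 3 libraries). Krt8, Krt18 and Krt19 had no overlap on the high side, as had 15.5% of genes. All 4 had an unadjusted p under 0.05, as did 25.1% of genes, while the adjusted p-values in edgeR's quasi-likelihood test were 0.105 to 0.178 and that test called 0.00601% of genes. DESeq2 called Krt7 and Krt8, beside 6.3% of genes. Without PKO young 3 edgeR called Krt7 (adjusted p = 0.0227), beside 17.4% of genes. With PKO young 1 as the only PKO young library, which is then assumed to vary like the other groups, the values were 4.25 for Krt8, 3.59 for Krt18, 4.06 for Krt19 and 3.29 for Krt7. In that fit, chosen after the data were seen, edgeR called Krt7 (adjusted p = 0.0377), beside 7.15% of genes.

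In DKO young against WT young the values were 2.45 ± 1.02 for Krt8, 1.87 ± 1.07 for Krt18, 1.59 ± 1.18 for Krt19 and 2.16 ± 0.81 for Krt7 (SE, 3 against 3 libraries). Krt7 and Krt8 had no overlap on the high side, as had 22.4% of genes, and 2 of 4 had an unadjusted p under 0.05 beside 41.2% of genes. The smallest adjusted p in edgeR's quasi-likelihood test was 0.0689, for Krt7, with 0 of 4 members and 27.8% of genes called. DESeq2 called Krt7 and Krt8, beside 16.4% of genes. The 3 knockout comparisons share the WT young libraries.

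Markers of several cell types moved with these contrasts. The summed level of the 7 keratinocyte markers was between 12977 and 18845 CPM for WKO, between 3679 and 16489 CPM for PKO and between 15381 and 17075 CPM for DKO, and between 1780 and 3197 CPM for WT. All 7 passed the edgeR threshold upward in WKO and in DKO young, beside 13.1% and 15.8% of all genes. In PKO young 0 of 7 did, beside 0.00601% of genes. For the 11 T and NK cell markers the sums lay between 54.0 and 1010 CPM for WKO, between 296 and 3917 CPM for PKO and between 102 and 346 CPM for DKO, and between 2033 and 2737 CPM for WT. The sums of 9 sebaceous gland markers lay between 1499 and 2467 CPM for WKO and between 847 and 2074 CPM for PKO. They lay between 1387 and 3322 CPM for DKO and between 450 and 654 CPM for WT. Of the 9, 5 were called higher in WKO, beside 13.1% of genes, and 0 in PKO, beside 0.00601%. In DKO 2 were called higher and 1 lower, beside 15.8% and 12.1% of genes. Endothelial and mural markers had sums of 11.4 to 51.7 CPM over WKO, 13.3 to 48.7 CPM over PKO and 17.3 to 50.7 CPM over DKO, against 62.5 to 117 CPM over WT. The 10 follicle bulge and outer root sheath markers summed to 573 to 959 CPM for WT. In WKO, PKO and DKO they summed to 4066 to 5487, 911 to 3941 and 3338 to 3603 CPM. Most of each sum was Krt15, which is also in the list of keratins of stratified epithelia. Krt15 stood at 356 to 710 CPM for WT and at 3841 to 5257, 650 to 3707 and 3025 to 3245 CPM for WKO, PKO and DKO. The fitted values of the 10 markers had medians of 0.17, 0.44 and 0.08, with 6, 7 and 5 of 10 positive. Fibroblast markers summed to 851 to 1687 CPM for WT. In the same order the knockouts held 54.9 to 1777, 107 to 2658 and 18.4 to 2984 CPM, with 0, 8 and 1 of 10 positive. The part of these marker lists in the keratin values was not tested. Per 1000 CPM of Krt5 and Krt14 together, the sum of the 4 simple keratins lay between 9.61 and 32.8 CPM for WKO, between 9.03 and 48.7 CPM for PKO and between 5.70 and 33.1 CPM for DKO, and between 2.85 and 29.0 CPM for WT, so on that scale the libraries of each knockout overlapped those of WT. The gland marker sums lay between 106 and 1277 CPM for WKO, between 52.2 and 283 CPM for PKO and between 45.1 and 120 CPM for DKO, and between 39.6 and 108 CPM for WT. Of the 12 gland markers tested in WKO, 2 were called higher, the caseins Csn2 and Csn1s1, beside 13.1% of all genes, and Csn2 stood at 13.6, 558 and 12.5 CPM in the 3 WKO libraries. In WT young 1, the lowest library, all 4 genes together held 2.54 CPM.

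Old WT epidermis held more of all 4 keratins than any young WT library. The log2 fold changes of old over young WT were 4.64 ± 1.19 for Krt8, 4.58 ± 1.29 for Krt18, 4.40 ± 1.34 for Krt19 and 3.52 ± 0.91 for Krt7 (SE, 2 against 3 libraries). All 4 had no overlap on the high side, as had 18.9% of 17622 genes, and all 4 had an unadjusted p under 0.05, as did 22.9% of genes. The adjusted p-values in edgeR's quasi-likelihood test were 0.0623 to 0.0935, with 1.99% of genes called. DESeq2 and edgeR with no low-count filter each called 4 of 4, beside 5.72% and 2.98% of genes. The median over the members was 4.49 beside 0.01 over all genes. With WT old 1 as the only old library, the values were 3.05, 2.54, 3.01 and 2.28 in the same order of genes, with edgeR adjusted p-values of 0.199 to 0.291 under the assumption that the lone old library varies like the other groups. The gland marker sums of the old libraries, 302.7 and 20187 CPM, both lay above the 39.6 to 108 CPM of WT young. T and NK cell markers summed to 161 and 402 CPM in WT old, against 2033 to 2737 CPM in WT young, with 0 of 11 fitted values positive. Keratinocyte markers summed to 3703 and 12058 CPM in WT old, against 1780 to 3197 CPM in WT young, with 7 of 7 positive. The part of these markers in the difference was not tested. Per 1000 CPM of Krt5 and Krt14, the members summed to 34.7 and 659 CPM in WT old, against 2.85 to 29.0 CPM in WT young.

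Merkel cells, the touch receptor cells of the epidermis that use Krt8 and Krt18, were followed through 10 markers. Their sum was 4.73 to 26.1 CPM in DKO cSCC, 1.63 to 46.7 CPM in PKO cSCC, 2.21 to 14.1 CPM over the young knockout groups, 5.91 and 8.98 CPM in WT old and 8.76 to 9.24 CPM in WT young. Most of it in the carcinomas with the largest sums was the mechanosensitive channel Piezo2, at 45.1 CPM in PKO cSCC 1. The defining factor Atoh1 was at most 0.500 CPM in any library, with Krt20 at most 0.360 CPM, and 2 to 7 of the 10 markers were at 0. In PKO young 1 and PKO cSCC 2, which hold high keratin levels, both were at 0. Chga, a secretory granule gene, was at 6.66 CPM in PKO young 1 and at most 0.291 CPM elsewhere, and the factor Sox2 had its highest value, 2.18 CPM, in PKO cSCC 2, where Piezo2 was at 34.2 CPM.

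The list of other simple epithelial keratins held 2 genes. Krt20, a keratin of gut and Merkel cells, was too low to be tested. Krt23, a type I keratin, fell in PKO cSCC against PKO young, with a log2 fold change of -2.77 ± 0.66 (edgeR adjusted p = 0.0173), and was not called elsewhere. Against old WT its fitted value was -0.42 in DKO cSCC and -2.18 in PKO cSCC. Of the 11 keratins of stratified epithelia, 7 rose in WKO young against WT, with a median of 2.82, beside 13.1% of all genes called higher. In DKO young 8 of 11 rose, with a median of 2.63, beside 15.8% of genes. In PKO young 0 of 11 were called, beside 0.00601% of genes, while 9 of 11 fitted values were positive, with a median of 2.49. Krt15, a keratin of basal cells, rose in WKO young by a log2 fold change of 3.10 ± 0.56 (edgeR adjusted p = 0.0125), and Krt17, a keratin of appendages and wounds, rose in DKO young by 3.74 ± 0.49 (edgeR adjusted p = 0.00614). In the carcinomas against young epidermis of the same genotype, Krt6a, a wound keratin, rose by 5.13 ± 0.89 in DKO and by 6.49 ± 0.95 in PKO (edgeR adjusted p = 0.00567 and 0.00258). Of the 11, 2 rose and 1 fell in DKO cSCC, beside 3.27% of genes called higher and 4.03% lower, and 2 rose and 2 fell in PKO cSCC, beside 5.33% and 6.16%.

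Linker proteins that tie keratin filaments to desmosomes and hemidesmosomes were tested as 9 genes of a list of 10. In WKO and DKO young 7 of 9 rose against WT, beside 13.1% and 15.8% of all genes, among them the desmosomal plaque gene Pkp3 in WKO (log2 fold change 2.0 ± 0.36, edgeR adjusted p = 0.0125) and plakoglobin, Jup, in DKO (2.49 ± 0.38, edgeR adjusted p = 0.00614). In PKO young 0 of 9 were called, beside 0.00601% of genes, with 9 of 9 fitted values positive and a median of 1.61. In old WT against young WT 0 of 9 were called, beside 1.99% of genes, with 8 of 9 positive and a median of 1.83. In the carcinomas against old WT 0 of 9 were called, beside 0.0% of genes in DKO and 0.0121% in PKO. In PKO cSCC against PKO young 1 of 9 was called, beside 11.5% of genes, periplakin (Ppl), which fell by 2.08 ± 0.59 on the log2 scale (edgeR adjusted p = 0.0322).

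Among 17 genes of simple and glandular epithelium, such as claudins and epithelial transcription factors, 8 rose in WKO young and 11 in DKO young against WT, beside 13.1% and 15.8% of all genes called higher. In old WT 3 rose against young WT, beside 1.73% of genes. In PKO young 0 of 17 were called, beside 0.00601% of genes, with 17 of 17 fitted values positive and a median of 1.46. Elf3, an epithelial transcription factor, had log2 fold changes of 4.29 ± 0.73 in WKO young, 6.67 ± 0.79 in DKO young and 4.42 ± 0.82 in old WT (edgeR adjusted p = 0.0125, 0.00614 and 0.0331), each against WT young. The cell surface mucin Muc1 rose in old WT by 6.05 ± 1.26 (edgeR adjusted p = 0.0397) and stood at 2.41 and 74.5 CPM in its 2 libraries, against 0.395 to 0.882 CPM in WT young. In carcinoma against young epidermis of the same genotype, 4 of 17 fell in DKO, beside 4.03% of genes, and 3 fell and 1 rose in PKO, beside 6.16% and 5.33%. The tight junction gene Cldn4 fell by 5.34 ± 0.99 in DKO and fell by 6.73 ± 1.08 in PKO on the log2 scale (edgeR adjusted p = 0.00768 and 0.00325). Its level was 6.83 to 11.3 CPM over the DKO carcinomas, against 282 to 436 CPM over DKO young epidermis. Over the PKO carcinomas it was 0.141 to 2.30 CPM, against 15.5 to 334 CPM over PKO young epidermis.

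The last list held 13 transcription factors that have been linked to simple keratin genes, such as AP-1 subunits, Ets and Klf factors. In young epidermis 8 rose and 1 fell in WKO and 10 rose and 1 fell in DKO against WT, beside 13.1% of genes called higher and 8.34% called lower in WKO, and 15.8% and 12.1% in DKO. Klf4, a factor of epidermal differentiation, rose by 2.06 ± 0.33 in WKO and 2.77 ± 0.34 in DKO (edgeR adjusted p = 0.0125 and 0.00614), and Jun, an AP-1 subunit, by 1.74 ± 0.30 and 2.50 ± 0.31 (edgeR adjusted p = 0.0125 and 0.00614). In the carcinomas against young epidermis of the same genotype, 5 of 13 fell in each, beside 4.03% of genes in DKO and 6.16% in PKO. Fosl1, an AP-1 subunit, fell by 5.20 ± 1.07 in DKO (edgeR adjusted p = 0.0107), and Junb by 2.28 ± 0.41 in PKO (edgeR adjusted p = 0.00518). In old WT against young WT, Tfap2c, an AP-2 factor of the surface ectoderm, was the 1 gene called, with a rise of 1.51 ± 0.33 (edgeR adjusted p = 0.0454), beside 1.73% of genes called higher.

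The likeness of other genes to each member was measured as the root mean square difference of log2(CPM + 1) over the 20 libraries, after the mean of each gene was taken off, among 10191 genes with a mean of at least 5 CPM. Krt8, Krt18 and Krt19 were each other's nearest genes. Krt18 lay at 0.69 from Krt8 and at 0.68 from Krt19, and Krt8 at 0.72 from Krt19. The third place for all 3 was the claudin gene Cldn3, at 1.10 from Krt8, 1.01 from Krt18 and 0.95 from Krt19, while each member's own spread on this measure was 2.41 for Krt8, 2.21 for Krt18 and 2.24 for Krt19. Krt7 had other neighbours, Clmn at 0.70, Marveld3 at 0.72 and Mansc1 at 0.76, beside an own spread of 1.29, and the other members ranked 5592 to 6407 from it. In the other direction Krt7 ranked 5 from Krt8, 10 from Krt18 and 11 from Krt19, so the place depends on which gene is taken first. The other members lay at 1.39 to 1.43 from Krt7, beyond its own spread. The measure does not rescale genes to a common spread, so these ranks cannot show whether Krt7 rose and fell with the other members. Levels of Cldn3 were 66.0 CPM in WT old 2, 6.79 CPM in PKO cSCC 2 and 0 in PKO cSCC 1 and 3.

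Without WT old 2 and PKO cSCC 2, a choice made after the levels were seen, Krt8, Krt18 and Krt19 were still nearest to each other over the remaining 18 libraries, at 0.45 for Krt8 and Krt19, 0.62 for Krt8 and Krt18 and 0.67 for Krt18 and Krt19. The third places changed. Akr1c18, a steroid dehydrogenase gene, took it for Krt8 and Krt19, at 0.81 and 0.93, and the oxytocin receptor gene Oxtr took it for Krt18, at 0.86. Krt7 then lay nearest to Acsbg1 at 0.50, Cat at 0.53 and Fam241b at 0.54. Oxtr held 16.8 CPM in DKO cSCC 1, the carcinoma of its group with the highest Krt18, against 1.73 and 3.24 CPM in DKO cSCC 2 and 3. These distances are descriptions over libraries that share depth and cell makeup, and no p is attached to them.

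**Figure D5:**
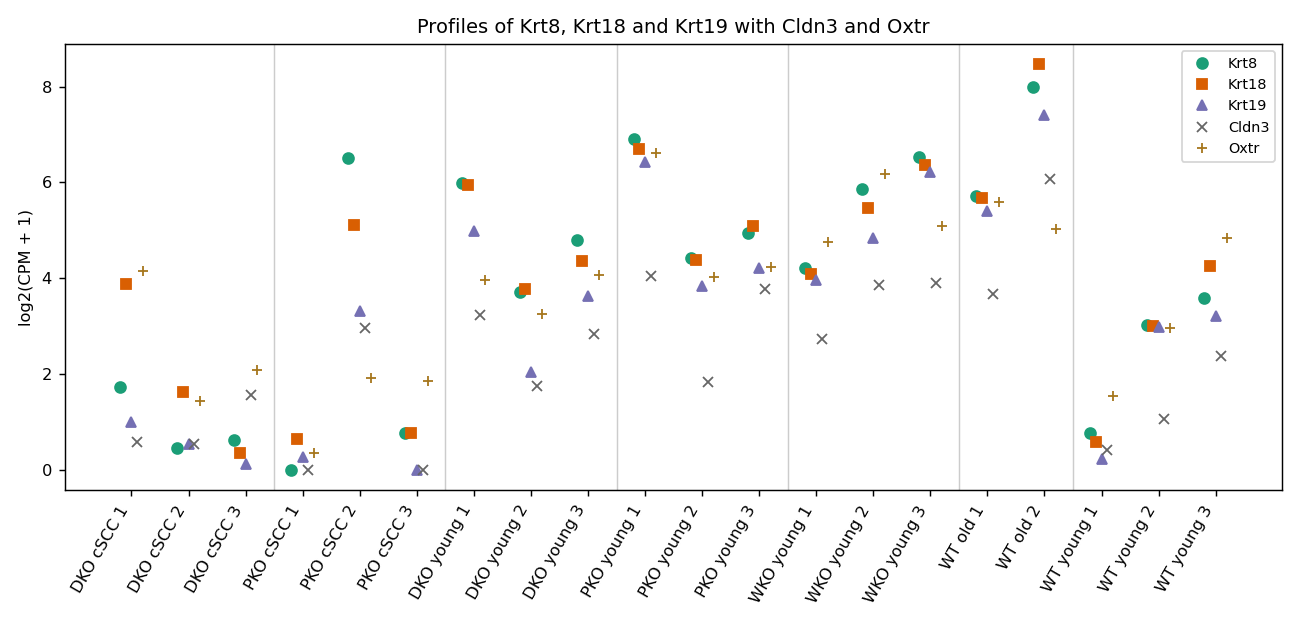
Levels of Krt8, Krt18, Krt19, Cldn3 and Oxtr on the log2(CPM + 1) scale (vertical axis) in the 20 libraries (horizontal axis), with grey lines between groups. The widest gaps between the 3 keratins are in PKO cSCC 2, with 90.2 CPM of Krt8 and 8.91 CPM of Krt19, and in DKO cSCC 1, with 13.8 CPM of Krt18 and 1.01 CPM of Krt19.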

How the data were processed

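Total RNA of sorted tdTomato-positive cells was made into stranded libraries, per the labels' protocols. The authors deposited estimated counts per Ensembl gene, with build mm39 and Salmon 0.13.1 among the tools in the submitters' processing notes, beside DESeq2 1.28.1, Trim Galore 0.4.1 and FastQC 0.11.5. The summing of transcripts to genes and any use of molecular identifiers are not described in these sources. The expected counts, rounded to whole numbers, were analysed with edgeR 4.0.16 in R 4.3.3: genes kept by filterByExpr with default settings, TMM-scaled, and tested by quasi-likelihood with group as the only term and Benjamini-Hochberg adjustment at 0.05. The 12 young libraries were fitted together (16627 genes), as were the 8 carcinoma and old WT libraries (16526 genes). Old against young WT used the 14 epidermis libraries (17622 genes), and carcinoma against young epidermis all 20 (18164 genes).

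Symbols, found for 48246 of 51123 identifiers, and transcript lengths came from GENCODE M21 (GRCm38), so levels per kilobase rest on the longest coding transcript (4094 bases for Krt7, 1958 for Krt8, 1437 for Krt18, 1576 for Krt19). Of 131 genes in the lists, 130 matched. Promoters came from RefSeq. The members and lists were chosen with earlier results of these data known. Named genes were the members, up to 2 genes per list with the smallest p in a comparison, the 3 nearest profiles of each member, and Wwox and Trp53. Single marker genes, Oxtr in DKO cSCC and Krt6a and Krt16 in PKO cSCC were singled out after their values were seen. Alternatives were RLE scaling, no filter, DESeq2 1.42.0, a replicate block, other libraries in the fit, DKO young 3 and DKO cSCC 3 left out, PKO young 2 and 3 left out (chosen after the data were seen), and each library left out in turn. The edgeR step was tested on simulated data.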

Additional observations from a re-analysis of the deposited data

How the results depend on the processing

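The 4 members were called in 0 of 44 tests by edgeR's quasi-likelihood test as reported, and calls depended on the setting. Except where named below, fitted directions held; the cause of each change was not tested. With no low-count filter edgeR called 2 members in PKO cSCC against old WT, beside 6.92% of all genes. It called 4 in DKO cSCC against old WT (2.58% of genes) and 1 in DKO against PKO cSCC (1.13%). It also called 2 in WKO young (9.46%), 1 in DKO young (11.4%), 4 in old against young WT (2.98%) and 2 in DKO cSCC against DKO young (3.16%). DESeq2 called 4 in WKO young (14.7% of genes), 2 in PKO young (6.3%) and 2 in DKO young (16.4%). It called 4 in old against young WT (5.72%) and 2 in DKO cSCC against DKO young (6.95%), and gave no adjusted p for 9 of the 44. Other libraries were also put in the fit (all 20, or for carcinoma against young only the groups compared). EdgeR then called 1, 1 and 2 members in PKO cSCC against old WT, DKO cSCC against old WT and DKO cSCC against DKO young. The shares of all genes were 21.3%, 4.34% and 8.1%. Without PKO young 2 and 3, a setting chosen after the data were seen, edgeR called 1 member in PKO young. Leaving out 1 library gave 0 to 2 called members in WKO young, 0 to 1 in PKO young and 0 to 3 in PKO cSCC against PKO young. The largest of these counts stood beside 20.3%, 17.4% and 11.3% of all genes.

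The number of all genes called moved more. PKO cSCC against old WT had 2, with 2285 under no filter, 2587 by DESeq2, 566 without the libraries labelled DKO young 3 and DKO cSCC 3, 3876 with other libraries in the fit and 0 to 67 with 1 library left out. DKO cSCC against old WT had 0, with 853, 743 by DESeq2, 788 with other libraries and 0 to 2 with 1 left out. DKO against PKO cSCC had 1, with 375 under no filter, 235 by DESeq2, 2 with other libraries and 0 to 1 with 1 left out. WKO young had 3563, with 2199 with other libraries and 893 to 3513 with 1 left out. PKO young had 1, with 3 under RLE scaling, 990 under no filter, 2168 by DESeq2, 3 with other libraries, 1318 without the libraries labelled PKO young 2 and 3 and 1 to 2998 with 1 left out. DKO young had 4629, and 1609 to 4045 with 1 left out. DKO against PKO young had 0, with 177 by DESeq2 and 0 to 403 with 1 left out. Old against young WT had 351, with 1068 under no filter, 2049 by DESeq2, 225 without DKO young 3 and DKO cSCC 3, 154 with other libraries and 0 to 434 with 1 left out. PKO cSCC against PKO young had 2087, with 3350 by DESeq2, 7 with other libraries, 221 without PKO young 2 and 3 and 1144 to 2041 with 1 left out. DKO cSCC against DKO young had 1326, with 2595 by DESeq2 and 265 to 1800 with 1 left out. The difference of the DKO to PKO change between tissues had 0, with 93 under no filter, 461 by DESeq2, 1 without PKO young 2 and 3 and 0 to 11 with 1 left out.

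Replicate numbers were shared across groups, but in no comparison did every pair of same-numbered libraries deviate together with a correlation over 0.1, so the numbers were not taken to pair the samples. With the replicate block, 0 members were called, and the genes called were 0 in PKO cSCC against old WT, 2 in DKO against PKO cSCC, 2355 in WKO young and 0 in old against young WT. The block turned the log2 fold change of Krt18 in DKO against PKO cSCC to 0.12.

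Directions turned in comparisons with no call. Without DKO young 3 and DKO cSCC 3 Krt7 stood at 0.15 in DKO against PKO young. Without PKO young 2 and 3 the difference between tissues was 0.63 for Krt18. With 1 library left out, the log2 fold changes of DKO over PKO cSCC ran from -3.10 to 0.13 for Krt7, -6.10 to 1.53 for Krt8, -3.29 to 3.08 for Krt18 and -3.46 to 2.33 for Krt19. Those of DKO over PKO young ran from -0.87 to 0.76, -1.48 to 0.46, -1.64 to 0.26 and -2.35 to 0.0025. Those of PKO cSCC over PKO young ran from -2.41 to 0.43 for Krt7 and -7.19 to 0.28 for Krt8. The difference between tissues ran from -2.91 to 0.31 for Krt7, -5.32 to 2.25 for Krt8, -2.50 to 3.78 for Krt18 and -2.49 to 3.65 for Krt19.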
